A study of Mus musculus with 9 samples.

Results

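The large subunit of the cytosolic ribosome was followed through 45 genes in the mouse gastrocnemius, the large superficial muscle of the calf. The genes were those named Rpl with a number and an optional a, together with Rplp0, Rplp1 and Rplp2, without Rpl3, and with at least 30 counts over the 9 libraries. They were 45 of the 56791 rows of the count table, and no row that fitted the names had too few counts. The study gave ginkgolide B (GB), a terpene lactone of the ginkgo tree that blocks the platelet activating factor receptor, to ageing female mice. Its design asks how aged vehicle muscle differs from young vehicle muscle, and how aged GB muscle differs from aged vehicle muscle. The young vehicle group held 3 libraries of mice labelled young, with 3M in the titles, that received saline. The aged vehicle group held 3 libraries of mice labelled aged, with 23M in the titles, that received saline. The aged GB group held 3 libraries of aged mice that received GB at 12 mg per kg. Saline and GB were both given every day for 2 months by oral gavage, so every animal was gavaged. No strain is given, and nothing states that libraries of 1 group come from different mice. Each p-value therefore weighs a difference against variation among libraries that could be technical in origin.

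The large subunit joins amino acids at its RNA centre, passes the growing chain out through a tunnel, and recruits translation factors with a flexible stalk. Its proteins are needed in equal numbers, apart from the stalk dimers of Rplp1 and Rplp2, and unassembled copies are degraded in the nucleus. The mRNAs of vertebrate ribosomal proteins begin with a 5′ terminal oligopyrimidine tract (TOP), a C followed by a run of C and T, through which mTORC1 and the protein Larp1 control their translation and storage. Ribosome number in muscle sets how much protein a fibre can make, and it is known to grow under load and to shrink with disuse.

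Promoter starts are shown for 8 members because a pyrimidine tract at the start is what TOP mRNAs are known by, and because these 8 were taken from both ends of the range of GB differences. They were picked after their values were seen. RefSeq promoters of build GRCm38.p6 matched 34 of the 45 members. Each line gives the 30 bases before the annotated transcription start and the first 20 bases of the first exon, 5′ to 3′ on the gene's strand. Capitals mark the pyrimidine run of at least 5 bases, beginning with C, that lies nearest to the start and within 20 bases of it.
Rpl38, chr11:114668550-114668599, plus strand: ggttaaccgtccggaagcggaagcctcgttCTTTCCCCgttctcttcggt
Rpl28, chr7:4792935-4792984, plus strand: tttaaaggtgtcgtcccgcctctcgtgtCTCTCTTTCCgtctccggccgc
Rpl35, chr2:39005112-39005161, minus strand: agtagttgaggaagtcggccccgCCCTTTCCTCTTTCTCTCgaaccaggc
Rpl14, chr9:120571487-120571536, plus strand: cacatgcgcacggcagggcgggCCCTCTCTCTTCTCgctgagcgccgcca
Rpl15, chr14:18270967-18271016, minus strand: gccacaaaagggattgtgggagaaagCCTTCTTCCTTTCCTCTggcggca
Rpl4, chr9:64173357-64173406, plus strand: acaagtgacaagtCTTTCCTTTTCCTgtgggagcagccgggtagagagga
Rplp0, chr5:115559437-115559486, plus strand: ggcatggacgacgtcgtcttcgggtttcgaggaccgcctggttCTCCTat
Rpl26, chr11:68901536-68901585, plus strand: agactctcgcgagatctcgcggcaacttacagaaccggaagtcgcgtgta
In Rpl38, Rpl28, Rpl35, Rpl14 and Rpl15 a C with at least 4 pyrimidines after it lies within 5 bases of the start, as in a TOP. In Rpl4 the run lies upstream of the start, in Rplp0 it lies downstream of it, and in Rpl26 none lies within 20 bases of the start. Such a C within 5 bases of a listed start was found in 16 of the 34 members (47.1%) and in 21.2% of all 27025 genes with a promoter of this length. Within 20 bases the shares were 79.4% of the members and 53.3% of all genes. CCGGAAG, the core of an ETS factor site, was found on either strand in 41.2% of the members' promoters and 9.93% of all. GGGCGG, an Sp1 box, was in 67.6% and 38.2%, and TATAAA was in 11.8% and 15.7%. CACGTG, an E-box that Myc can bind, was in 14.7% and 8.09%. These are matches of letters, and no binding was measured. The starts used in the muscle were not measured either, so a missing run does not show that an mRNA lacks a TOP.

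In several measures of the whole library, GB and vehicle did not overlap. Library totals were 51543383 to 61680520 counts with vehicle and 39478427 to 44294097 with GB. Genes with a count numbered 22616 to 24185 with vehicle and 18678 to 19362 with GB. Mitochondrially encoded genes took 8.60 to 10.2% of counts in young vehicle, 13.9 to 15.3% in aged vehicle and 24.3 to 26.1% in GB libraries. The labels name no batch, so treatment and library preparation cannot be told apart. Of the members, Rpl13a had 142 to 435 counts and Rpl24 6 to 30 counts per library. The other 43 had 2541 to 48277 counts in vehicle and 3333 to 77837 in GB libraries, so counting error was small for them. The table also holds 199 rows named as pseudogenes of large-subunit genes, and how reads shared by a gene and its copies were counted is not known. Such rows took 2.10 to 2.34 counts per 100 member counts with vehicle and 2.54 to 2.71 with GB.

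Between young and aged vehicle muscle the large subunit was level. Levels are TMM-scaled CPM, counts brought to a common library size, and the members summed to 7613, 7975 and 6951 CPM in the young and to 7579, 7635 and 7402 CPM in the aged libraries. The aged libraries lay inside the range of the young ones, with means of 7539 ± 122 and 7513 ± 519 CPM (SD, n = 3), a ratio of 1.00 (exact two-sided permutation p = 0.9). In edgeR's quasi-likelihood test, adjusted over 17534 genes, 0 of the 45 members were called at an adjusted p under 0.05. Of all genes 4.32% were higher and 4.28% lower, and of other genes in the members' range of coding length 4.52% and 5.31%. At an unadjusted p under 0.05 edgeR gave 2 members, DESeq2 2 and limma-voom 1, and neither of the other tools called one after adjustment. The median log2 fold change of the members was -0.00, as it was for all genes, and 42 of the 45 lay within 0.2 of 0, with a median standard error of 0.09.

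Single members with the widest age differences were followed in each library. Rpl26, a tunnel protein that also binds p53 mRNA, was at 145, 157 and 138 CPM in young and 163, 177 and 165 CPM in aged libraries. Those groups did not overlap, but the log2 fold change of 0.20 (SE 0.08) did not pass (edgeR adjusted p = 0.165). Rpl30, which can regulate its own splicing in yeast, was at 80.5, 80.1 and 67.5 CPM in young and 86.0, 86.5 and 81.0 CPM in aged libraries. These also did not overlap, at 0.15 on the log2 scale (SE 0.08; edgeR, adjusted p = 0.318). Rpl13a, which outside the ribosome acts in translational silencing after interferon, was at 3.41, 3.64 and 2.65 CPM in young and 2.57, 2.35 and 2.33 CPM in aged libraries. Its groups did not overlap either, at -0.42 on the log2 scale (SE 0.18; edgeR, adjusted p = 0.196). These 3 were the members without overlap, where 34.4% of all genes showed none. Rpl8 was at 298, 307 and 265 CPM in young and 269, 256 and 246 CPM in aged libraries, and Rpl28 at 139, 146 and 125 CPM and at 121, 128 and 123 CPM. Rpl7a was at 184, 185 and 165 CPM in young and 166, 162 and 161 CPM in aged libraries. These 3 overlapped between the groups, at -0.17 (SE 0.11), -0.13 (SE 0.08) and -0.13 (SE 0.07) on the log2 scale, as did Rpl38 at 0.17 (SE 0.10), and none was called. Rpl24 had the highest value, 0.94 (SE 0.60, edgeR adjusted p = 0.403), from 6 to 21 counts in young and 18 to 29 in aged libraries.

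With GB the summed level of the large subunit was 33913, 32647 and 29730 CPM, above every vehicle library. The mean of 32096 ± 2145 CPM (SD, n = 3) was 4.26 times that of aged vehicle and 4.27 times that of young vehicle. The exact two-sided permutation p was 0.1 for each, the smallest that 3 against 3 libraries can give. As a plain share of the library, the members took 0.783 to 0.892% of counts in young vehicle, 0.827 to 0.894% in aged vehicle and 2.27 to 2.70% in GB libraries. With mitochondrially encoded genes set aside, the shares were 0.863 to 0.993%, 0.961 to 1.04% and 3.07 to 3.57%. So the members were also higher in the GB libraries without any scaling factor. In plain share of all counts the ratio of means was 2.87 against aged vehicle and 2.90 against young vehicle. In bulk tissue, fewer cells of a type and less RNA per cell cannot be told apart.

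**Figure D1:**
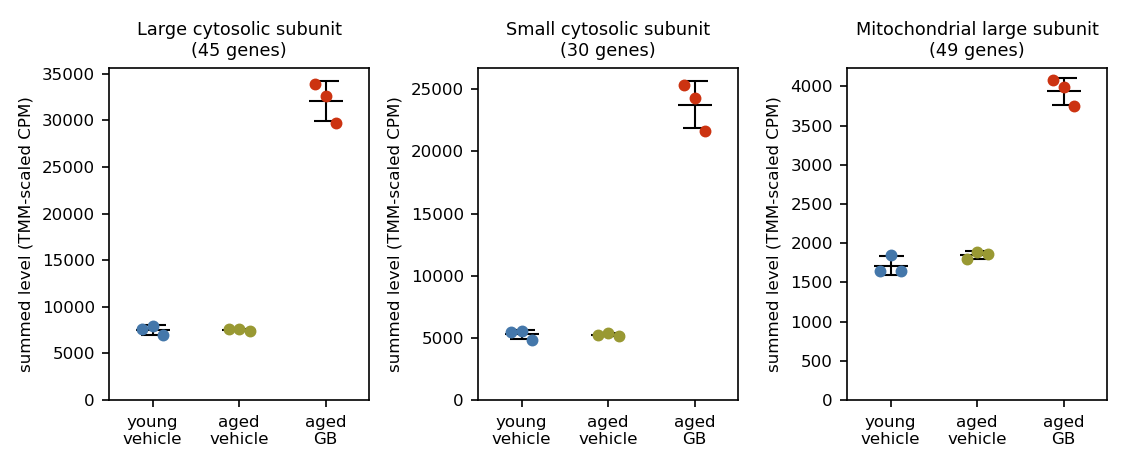
Summed TMM-scaled CPM of the large cytosolic subunit, the small cytosolic subunit and the mitochondrial large subunit in each library (points), with mean and SD over 3 libraries (bars), on axes that start at 0. The 3 GB libraries sit at 29730 to 33913 CPM for the large subunit, against 6951 to 7975 CPM in the 6 vehicle libraries.

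Gene by gene, 44 of the 45 members were called higher in aged GB than in aged vehicle libraries and 0 lower, where 24.4% of all genes were higher and 28.8% lower (edgeR, adjusted p under 0.05). Among 6199 other genes with a coding length in the members' range, 75 to 1257 bases, 38.7% were higher and 17.1% lower. Most members lie at the short end, 15 with up to 400 bases, 17 with 400 to 600 and 13 with more. Other genes were higher in 61.7% of cases up to 300 bases, 56.4% at 300 to 400 and 53.4% at 400 to 500. The share was 50.3% at 500 to 600 bases and 31.6% at 800 to 1000. Medians of the log2 fold change were 2.20 for the members, 0.31 for the 6199 genes and -0.05 for all genes. At least 2-fold differences were found in 43 members and at least 4-fold differences in 27. In 44 members all 3 GB libraries lay above all 3 aged vehicle libraries, where 27.3% of all genes did and 59.7% did not overlap in either direction. The members differed widely among themselves, from 0.84 to 3.09 on the log2 scale, with a median standard error of 0.09. Scaling by library totals alone moved the median of all genes to -0.62 and that of the members to 1.64. It also moved the share of higher genes among all called genes from 45.9 to 19.4%. A change of scaling shifts all genes nearly alike. The distance between these medians, 2.26 in both scalings, was therefore fixed in advance and is no test.

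**Figure D2:**
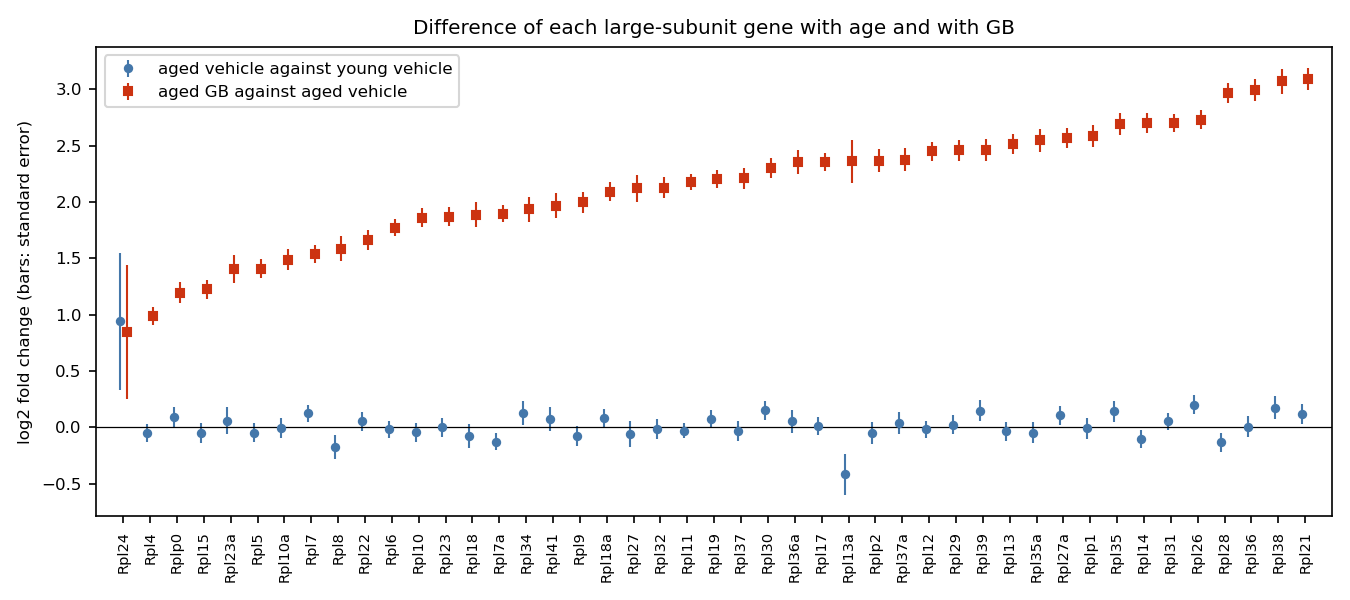
Log2 fold change of each of the 45 members with its standard error, for aged against young vehicle (blue circles) and aged GB against aged vehicle (red squares), ordered by the second. The age differences lie around 0, with the widest at Rpl24, and the GB differences run from 0.84 at Rpl24 to 3.09 at Rpl21.

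The stalk is built on Rplp0, which anchors pairs of the small acidic proteins Rplp1 and Rplp2, with Rpl12 at its base. Rplp0 was at 757, 756 and 792 CPM in aged vehicle and at 1966, 1792 and 1510 CPM with GB, and at 712, 761 and 695 CPM in young vehicle. The GB libraries lay above the others, and Rplp0 rose by 1.19 on the log2 scale (SE 0.09, edgeR adjusted p = 3.85e-07). Rplp1 went from 373, 389 and 360 CPM in aged vehicle to 2388, 2336 and 2027 CPM with GB, after 392, 405 and 331 CPM in young vehicle. It rose by 2.59 (SE 0.10, edgeR adjusted p = 1.04e-09), without overlap. Rplp2 was at 142, 149 and 148 CPM in aged vehicle and 818, 801 and 644 CPM with GB, a rise of 2.37 (SE 0.10, edgeR adjusted p = 3.09e-09), with young vehicle at 150, 164 and 139 CPM. Rpl12 rose by 2.45 (SE 0.08, edgeR adjusted p = 4.54e-10). Thus the anchor Rplp0, which has the longest coding sequence of the stalk genes, had a smaller rise than its 3 partners, all 4 being called.

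Rpl5 and Rpl11 carry the 5S ribosomal RNA into the subunit, and outside it they bind and inhibit Mdm2, the ubiquitin ligase of p53. Rpl5 was at 222, 225 and 216 CPM in aged vehicle, 627, 608 and 525 CPM with GB and 226, 242 and 218 CPM in young vehicle libraries. It was higher in every GB library and rose by 1.41 (SE 0.08, edgeR adjusted p = 3.49e-08). Rpl11 was at 143, 132 and 140 CPM in aged vehicle, 644, 618 and 614 CPM with GB and 143, 145 and 135 CPM in young vehicle libraries. Rpl11 rose by 2.18 (SE 0.07, edgeR adjusted p = 4.54e-10), again without overlap. The members of this pair, which enter the ribosome together, thus had unequal log2 fold changes. They also differ in coding length, with 891 bases for Rpl5 and 534 for Rpl11. With the offset for coding length described below, their values were 1.21 and 1.60.

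Rpl4, Rpl17, Rpl19, Rpl23a, Rpl26, Rpl31, Rpl35 and Rpl39 line the exit tunnel or surround its mouth, where chaperones and the signal recognition particle dock. All 8 were called higher with GB, with a median log2 fold change of 2.41 and a range of 0.99 to 2.73. Rpl4, whose long loop reaches into the tunnel, was at 557, 508 and 510 CPM in aged vehicle, 939, 1069 and 1116 CPM with GB and 546, 559 and 527 CPM in young vehicle libraries. It rose by 0.99 (SE 0.08, edgeR adjusted p = 5.91e-07), the lowest value among the 44 called members. Its raw counts overlapped, at 31026 to 32167 in aged vehicle and 29530 to 35610 in GB libraries, and the groups separated once library size was taken into account. Rpl23a, a docking site for the signal recognition particle, was at 44.7, 47.2 and 45.8 CPM in aged vehicle and at 151, 106 and 107 CPM with GB. Its GB libraries were all higher, with the first well above the other pair, and the rise was 1.40 (SE 0.12, edgeR adjusted p = 1.19e-06). Rpl26, at 1222, 1078 and 1054 CPM with GB, rose by 2.73 (SE 0.09, edgeR adjusted p = 3.79e-10). Rpl39, the small tunnel protein that has a testis paralog, went from 51.7, 56.5 and 56.5 CPM to 319, 313 and 274 CPM, a rise of 2.46 (SE 0.10, edgeR adjusted p = 1.31e-09). Rpl31 and Rpl35, both at the tunnel mouth, rose by 2.70 and 2.69.

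Rpl10, Rpl24 and Rpl29 are added late, Rpl10 as the last step that makes the peptidyl transferase centre functional. Rpl10 was at 296, 280 and 278 CPM in aged vehicle, 965, 1095 and 1042 CPM with GB and 318, 297 and 265 CPM in young vehicle libraries. It rose by 1.86 (SE 0.09, edgeR adjusted p = 4.93e-09) with no overlap. Rpl29 rose by 2.46 (SE 0.09, edgeR adjusted p = 9.80e-10). Rpl24, which forms a bridge to the small subunit, was the member not called, at 0.510, 0.300 and 0.296 CPM in aged vehicle and at 0.604, 0.900 and 0.480 CPM with GB. These overlapped, and the difference was 0.84 on the log2 scale (SE 0.59; edgeR, adjusted p = 0.255). Its level in all 9 libraries, 0.104 to 0.900 CPM, was far under that of the other late proteins, and whether its reads were lost to copies of the gene was not tested.

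**Figure D3:**
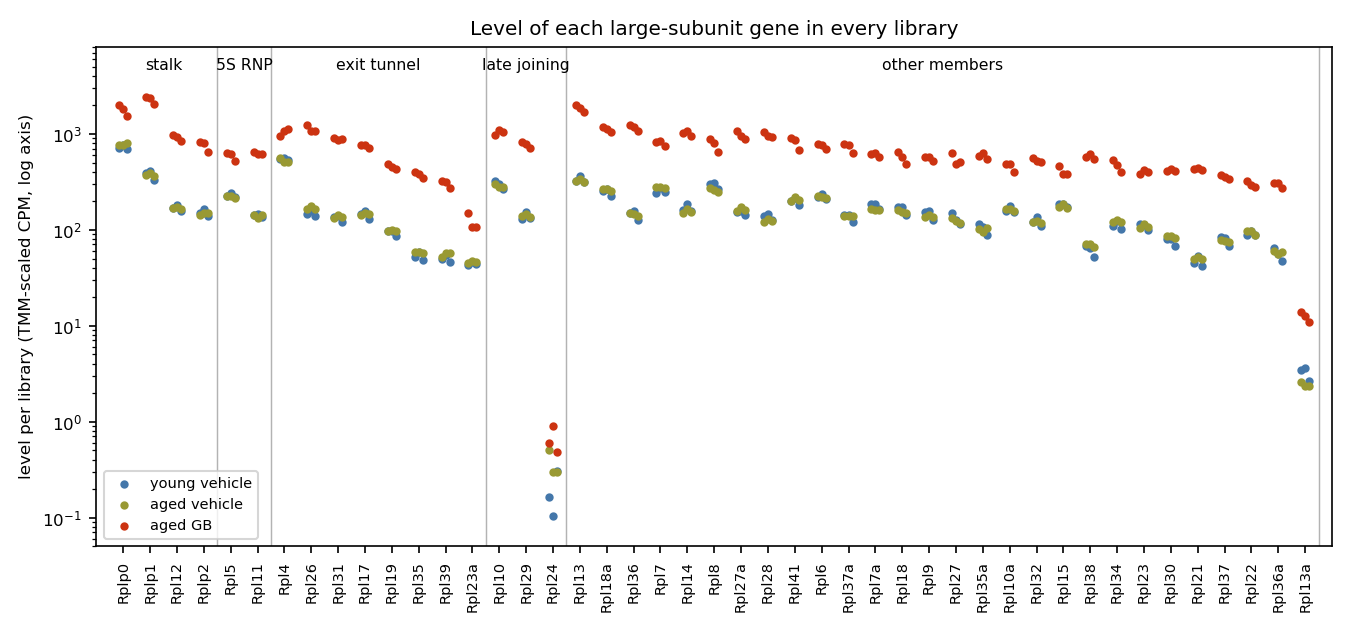
Level of each member in each of the 9 libraries (TMM-scaled CPM, log axis), grouped by role and ordered by mean level within a role; colours mark young vehicle, aged vehicle and aged GB. Red points lie above the vehicle points for 44 of the 45 members against both vehicle groups, and Rpl24 and Rpl13a lie far below the rest.

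The other 28 members were put in none of these roles, and all 28 were called higher with GB, with a median of 2.12 and a range of 1.22 to 3.09. Rpl21 was at 48.9, 51.7 and 49.7 CPM in aged vehicle, 423, 442 and 415 CPM with GB and 44.9, 52.5 and 41.6 CPM in young vehicle libraries. It rose by 3.09 (SE 0.10, edgeR adjusted p = 3.27e-10), the highest value of any member, and its raw counts separated too, at 2781 to 3277 in aged vehicle and 12978 to 14711 in GB libraries. Rpl38, which in mouse embryos is needed for translation of Hox mRNAs, was at 71.2, 70.5 and 65.7 CPM in aged vehicle, 574, 616 and 551 CPM with GB and 68.3, 64.3 and 51.4 CPM in young vehicle libraries. The GB libraries were all higher, and the rise was 3.07 (SE 0.11, edgeR adjusted p = 7.23e-10). Rpl36 went from 149, 145 and 140 CPM in aged vehicle to 1232, 1165 and 1057 CPM with GB, with 148, 157 and 126 CPM in young vehicle, a 7.98-fold rise over aged vehicle (edgeR adjusted p = 4.32e-10). Rpl28, a protein that budding yeast lacks, went from 121, 128 and 123 CPM to 1048, 944 and 921 CPM, a rise of 2.96 (SE 0.09, edgeR adjusted p = 2.58e-10).

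At the other end of these 28 stood Rpl15, with 173, 183 and 169 CPM in aged vehicle, 459, 383 and 382 CPM with GB and 187, 186 and 171 CPM in young vehicle libraries. Rpl15 rose by 1.22 (SE 0.09, edgeR adjusted p = 1.90e-07), with no overlap. Rpl22, a T-cell development factor that represses the mRNA of its own paralog, was at 97.7, 96.8 and 88.5 CPM in aged vehicle and at 323, 293 and 280 CPM with GB, a rise of 1.66 (SE 0.09, edgeR adjusted p = 1.28e-08). Rpl8, which lies near the peptidyl transferase centre, was at 269, 256 and 246 CPM in aged vehicle and at 880, 793 and 643 CPM with GB, a rise of 1.59 (SE 0.11, edgeR adjusted p = 1.28e-07). Rpl41, the shortest member with 75 coding bases, rose by 1.97 (SE 0.11). Rpl13a, at 13.8, 12.6 and 10.8 CPM with GB, rose by 2.36 (SE 0.19, edgeR adjusted p = 4.45e-07).

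Set against young vehicle, the same GB libraries gave 45 of 45 members higher and 0 lower, where 24.7% of all genes were higher and 29.0% lower (edgeR). This comparison is not in the study's design and shares its libraries with the others, so its values are given side by side only. Other genes in the members' range of coding length were higher in 37.9% and lower in 18.5% of cases. Those higher were 61.3% up to 300 bases, 50.2% at 500 to 600 and 32.6% at 800 to 1000. Medians on the log2 scale were 2.17 for the members and -0.09 for all genes. All 3 GB libraries lay above the young vehicle libraries for all 45 members, where 27.5% of all genes did and 60.7% did not overlap in either direction. Rpl38, Rpl21 and Rpl26 had values of 3.24, 3.20 and 2.93, and Rpl4, Rpl15, Rplp0 and Rpl5 had 0.94, 1.17, 1.28 and 1.36. Rpl24 was called at 1.78 (SE 0.61, edgeR adjusted p = 0.0271). Over 24 alternatives, among them DESeq2 and limma-voom fits, its adjusted p ran from 0.00948 to 0.209. In 10 of these Rpl24 was not called, including the fits without young replicate 1, young replicate 2 and GB replicate 2. That left 44 members.

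Within a library the members moved together. Young replicate 3 had the lowest level of its group for 41 members and young replicate 2 the highest for 33. Among GB libraries, replicate 1 was highest for 33 members and replicate 3 lowest for 39. The aged vehicle libraries were less uniform, with replicate 2 highest for 26 members and replicate 3 lowest for 25. The median coefficient of variation over members was 8.58% in young vehicle, 3.51% in aged vehicle and 7.59% in GB libraries. Members are therefore not independent of each other within a library.

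The order of levels was read per kilobase of reference mRNA, so that genes of different length can be compared. Rplp1 was the most abundant member in all 3 groups, at 754 ± 78.7 CPM per kb in young vehicle, 749 ± 29.1 in aged vehicle and 4510 ± 391 in GB libraries (SD, n = 3). Rplp0 was next in both vehicle groups, at 532 and 566 CPM per kb, and 9th with GB, at 1293 CPM per kb. Rpl4 was 7th in both vehicle groups and 29th with GB, with 354, 341 and 677 CPM per kb in young vehicle, aged vehicle and GB. Rpl38 stood 28th in young vehicle, 23rd in aged vehicle and 5th with GB. Rpl13, Rpl36 and Rpl26 stayed in the first 9 places in each group, and Rpl13a and Rpl24 were 44th and 45th in each. The rank correlation of these levels over the 45 members was 0.99 between young and aged vehicle and 0.78 between aged vehicle and GB, as a description of genes that share libraries.

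To see which members moved apart from the common shift, the fit was repeated with each library's size set to its summed member count, so that a change is one in share of the large-subunit counts. With age 0 of 45 members were called (edgeR), where 3.23% of all genes were higher and 3.15% lower. Between aged GB and aged vehicle 20 members were higher and 14 lower in share, where 1.07% of all genes were higher and 85.1% lower, and 11 were not called. Against young vehicle 21 were higher and 14 lower, beside 1.23% and 86.0% of all genes. The summed member count took a larger part of the library with GB, so most genes are lower in this fit by construction. The percentages of all genes with GB are therefore no baseline for the members. With so many genes called, adjustment over all genes raises a p-value near the threshold only little. Since shares sum to a fixed whole, members that gained in share had to be balanced by members that lost.

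Rplp0 took 9.90 to 10.7% of the large-subunit counts in aged vehicle, at least 9.35% in each young vehicle library and 5.08 to 5.80% with GB. Its share fell by 0.90 on the log2 scale (SE 0.08, edgeR adjusted p = 3.09e-07). Rpl4 took 6.65 to 7.34% with aged vehicle, 7.01 to 7.57% with young vehicle and 2.77 to 3.75% with GB, and its share fell by 1.09 (SE 0.11, edgeR adjusted p = 7.51e-07). The shares of both were lower in every GB library than in any vehicle library. Rpl15 and Rpl5 fell by 0.87 and 0.68 in share. Rpl21 went the other way, with 0.646 to 0.678% in aged vehicle, 0.590 to 0.658% in young vehicle and 1.25 to 1.40% in GB libraries, a rise in share of 1.00 (SE 0.09, edgeR adjusted p = 3.13e-07). Rpl38, Rpl36 and Rpl28 rose in share by 0.98, 0.91 and 0.87, Rplp1 by 0.50, Rplp2 by 0.27 and Rpl12 by 0.36. Rpl11, at 0.09 (SE 0.08), was not called. Rpl24 was not called either, at -1.24 (SE 0.61, edgeR adjusted p = 0.0741), and limma-voom and both table-length offsets put it past the threshold.

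**Figure D4:**
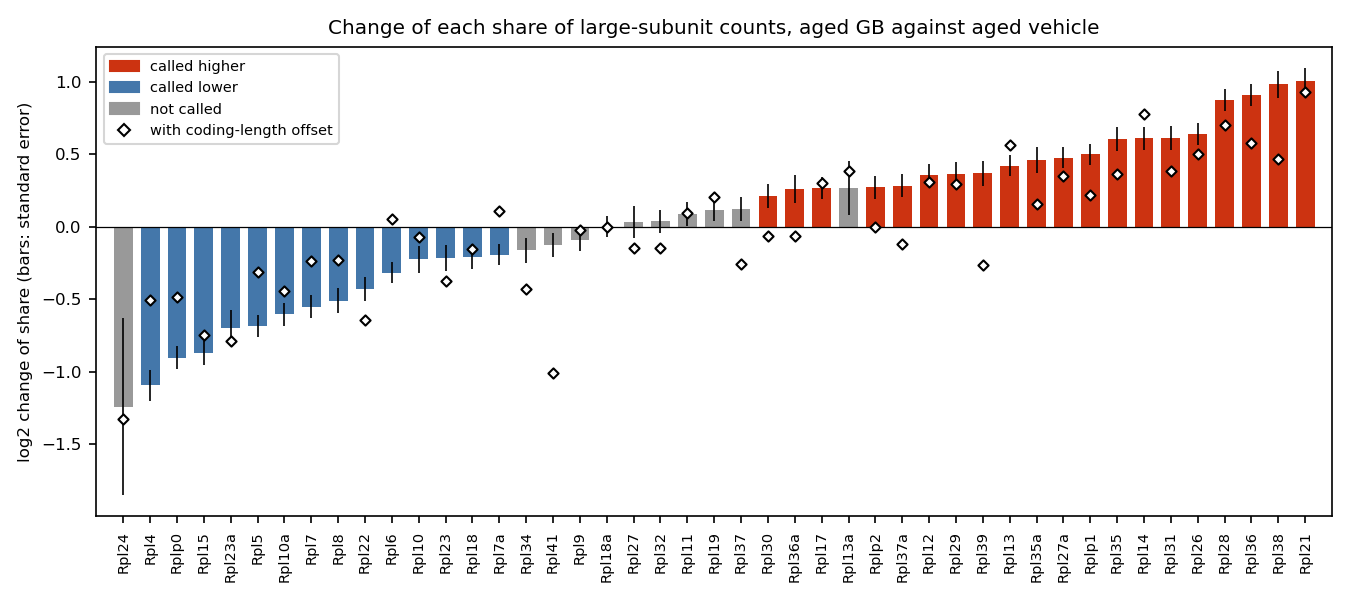
Log2 change of each member's share of the large-subunit counts, aged GB against aged vehicle, with standard errors; red bars were called higher, blue lower and grey not called, and diamonds give the value with an offset for coding length. Rpl4 at -1.09, Rplp0 at -0.90 and Rpl15 at -0.87 are the lowest called members, and Rpl36, Rpl38 and Rpl21 stand at 0.91 to 1.00.

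The differences with GB went with coding length, both in the large subunit and across all genes. Over the 45 members the rank correlation of the log2 fold change with coding length was -0.52, over the 30 small-subunit genes it was -0.49, and over 14026 genes it was -0.42. These are descriptions across genes measured in the same libraries. Of 15 members with up to 400 coding bases, 11 rose in share and 1 fell. Of 13 members with 600 to 1300 coding bases, 2 rose and 10 fell. Members also stood above other genes of their length: in the range of 300 to 400 bases 10 members had a median log2 fold change of 2.46 and 408 other genes 0.93. In the range of 800 to 1000 bases 4 members had 1.47 and 1318 other genes 0.16. What sets the relation with length was not tested.

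**Figure D5:**
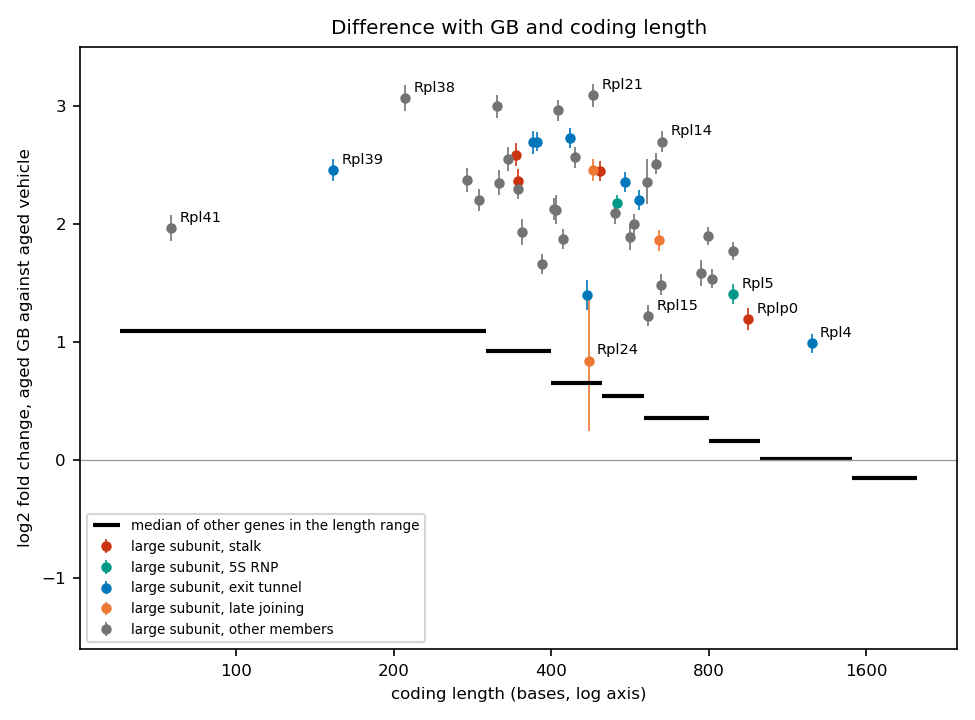
Log2 fold change of each member, aged GB against aged vehicle, with its standard error, against coding length in bases (log axis), coloured by role; black lines give the median of other genes in each length range. Members run from 2.38 at the median of the shortest range to 0.99 at Rpl4, and the median of other genes runs from 1.09 to 0.01 over the same ranges.

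With an offset for each library's trend with coding length, added after the data were seen, 44 members were still called higher and the median was 1.48. Rpl21 then stood at 2.43, Rpl14 at 2.28, Rplp0 at 1.04, Rpl4 at 1.02 and Rpl41 at 0.37. The changes in share depended on such offsets more than the rises did. Under the fit without an offset and with each of 3 offsets, 11 of the 20 higher members and 7 of the 14 lower ones had the same call. The 11 were Rpl12, Rpl13, Rpl14, Rpl21, Rpl26, Rpl27a, Rpl28, Rpl31, Rpl35, Rpl36 and Rpl38. The 7 were Rpl4, Rpl7, Rpl8, Rpl10a, Rpl15, Rpl23a and Rplp0. The share of Rplp1 changed sign under the offset for the deposited gene length, at -0.0050, and the offset for that length with GC content, at -0.14. Rplp2 was at -0.0049 and Rpl39 at -0.26 under the coding-length offset, so the gains in share of Rplp1, Rplp2 and Rpl39 turned with the choice of offset. The gains of Rpl29, Rpl30, Rpl36a and Rpl37a and the losses of Rpl6, Rpl7a and Rpl18 also changed sign under at least 1 of the offsets. The loss of Rpl5 was at -0.09 (edgeR adjusted p = 0.273) with the offset for length and GC content. That of Rpl22 was at -0.12 and -0.01 with both offsets for deposited length, neither called. That of Rpl10, at -0.22 (edgeR adjusted p = 0.0400), was not called in 11 of 21 alternatives, including the fits without each aged vehicle replicate and without GB replicates 1 and 2.

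The pyrimidine tract was set beside the values. The 16 members with such a C within 5 bases of a listed start had log2 fold changes of 1.22 to 3.07 with GB against aged vehicle, with a median of 2.45. The 18 members with an entry but no such C had 0.84 to 2.73, with a median of 1.92. In share, 10 of the 16 rose and 3 fell, and 4 of the 18 rose and 8 fell. The ranges overlapped widely: Rpl38 and Rpl28 carry it and were among the highest, Rpl15 carries it and was among the lowest, and Rpl26 was high with no run within 20 bases of the start. The 11 members with no entry had a median of 2.30. Rpl4, Rplp0, Rpl5 and Rpl6, the members with the longest coding sequences (888 to 1257 bases), were all without such a C. This split of the members was not tested, and coding length was not taken into account in it. It rests on annotated starts and does not show which mRNAs lack a TOP.

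Beside the members, all 30 small-subunit genes were higher with GB than with aged vehicle and 0 lower, with a median log2 fold change of 2.20. In this comparison 24.4% of all genes were higher and 28.8% lower. The members' sum was 1.41 to 1.46 times that of the small subunit in aged vehicle, 1.39 to 1.44 times in young vehicle and 1.34 to 1.37 times in GB libraries (exact permutation p = 0.1 for GB against aged vehicle, the smallest possible). Rps27a and Fau, which fuse ubiquitin or a ubiquitin-like protein to a small-subunit protein, rose by 1.89 (SE 0.22) and 2.36 (SE 0.11). Of 6 paralogs of large-subunit genes 4 were tested and 3 were higher. Rpl3l, the striated-muscle form of Rpl3, rose by 0.84 (SE 0.07), but was not called with the offset for deposited length and GC content, at 0.12 (edgeR adjusted p = 0.198). Rpl22l1 rose by 1.70 (SE 0.14). Rpl7l1 rose by 0.54 (SE 0.12) but was at -0.024 with library totals and was not called with the coding-length offset. Rpl36al had few counts and was at 0.50 (SE 0.79). In the mitochondrial large subunit, which makes a different ribosome, 38 of 49 genes were higher and 4 lower, with a median of 0.84. These counts were not matched for coding length. Other genes up to 300 coding bases had a median of 1.09 and those of 800 to 1000 bases 0.16.

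Medians were smaller among genes that build the subunit. Among all genes, 24.4% were higher and 28.8% lower with GB against aged vehicle. With library totals 2030 of the 17534 genes were higher and 8421 lower. Of 38 assembly factors 18 were higher and 7 lower with GB, with a median of 0.30 that became -0.26 with library totals (4 higher, 19 lower). Of 23 genes for ribosomal RNA synthesis and small nucleolar particles 9 were higher and 3 lower, with a median of 0.15 that became -0.41 with library totals (5 higher, 11 lower). Npm1, a nucleolar chaperone, rose by 0.96 (SE 0.09), and Ncl, nucleolin, fell by 0.41 (SE 0.14) but was at 0.20 and 0.27 with the offsets for deposited length. The call of Ncl was also lost with the coding-length offset and without aged vehicle replicate 1, GB replicate 1 or GB replicate 2. Of 20 other mRNAs that carry a TOP, 16 were higher and 1 lower, with a median of 1.17. Among them Tpt1 rose by 1.89 and Rack1, a small-subunit scaffold, by 1.69. The elongation factors Eef1a1 and Eef2 rose by 0.49 (SE 0.11) and 0.35 (SE 0.09) but were at -0.069 and -0.21 with library totals, and at least 1 offset for deposited length ended each call. Of 20 regulators of TOP mRNAs 7 were higher and 8 lower, with a median of -0.17 that was 0.20 with the offset for deposited length and 0.06 with that for coding length. Larp1, which binds the TOP, was lower in aged than young vehicle (-0.50, SE 0.09, edgeR adjusted p = 0.00416). It was lower again with GB (-0.99, SE 0.09, edgeR adjusted p = 1.27e-06). Over 26 alternatives the GB difference of Larp1 ran from -1.56 to -0.45 and was called in each. Eif4ebp2 was also lower in both comparisons (-0.55 and -0.46, edgeR adjusted p = 0.00123 and 0.000375). Cnbp was higher in both (0.31 and 0.70, edgeR adjusted p = 0.0223 and 5.63e-06). Both offsets for deposited length ended the GB call of Eif4ebp2. Library totals and the coding-length offset ended that of Cnbp, and its age call was lost in 5 of 26 alternatives.

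Markers of cell types in the tissue were set beside these values, where 24.4% of all genes were called higher and 28.8% lower. They were summed by list, and no marker was at 0 in all libraries of a group. On this scale all tested genes summed to 853722 to 915559 CPM in aged vehicle and to 1254431 to 1328972 CPM with GB. The sums of markers are therefore not plain shares of counts. Muscle fibre markers summed to 116912 to 129357 CPM in aged vehicle and to 171571 to 202055 CPM with GB, with 5 of 10 higher and 3 lower. Their log2 fold changes ran from -4.20 to 1.76. Endothelial markers summed to 599 to 635 and 302 to 366 CPM (1 of 8 higher, 5 lower), and fibroblast markers to 846 to 1088 and 608 to 774 CPM (2 of 8 higher, 5 lower). Red cell markers summed to 1159 to 2130 and 687 to 782 CPM (0 of 6 higher, 4 lower), and immune markers to 114 to 142 and 95.3 to 111 CPM (1 of 10 higher, 2 lower). Satellite cell markers summed to 47.6 to 63.6 and 66.8 to 75.5 CPM (2 of 6 higher, 0 lower), and proliferation genes to 20.8 to 21.2 and 29.6 to 32.6 CPM (1 of 8 higher, 0 lower). In young vehicle fibre markers summed to 148065 to 159400 CPM, endothelial markers to 404 to 419 and fibroblast markers to 1019 to 2164. Red cell markers there summed to 239 to 515 CPM and immune markers to 111 to 200. Satellite cell markers there summed to 61.7 to 72.2 CPM and proliferation genes to 24.3 to 33.6. The part of these cell types in the rise of the large subunit was not tested.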

How the data were processed

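The authors deposited 1 table of unnormalized whole-number counts, genes by 9 libraries, beside a gene length column. TRIzol extraction of total RNA and a KAPA mRNA library kit are named per the labels' protocols. Per the submitters' processing notes, FastQC, HISAT2, SAMtools and DESeq2 were used, without versions, and GRCm39 and mm10 are named as builds. Which read counter, annotation and strand setting were used: not given in the sources used here. Groups and replicate numbers came from the labels.

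Counts were tested as deposited with edgeR 4.0.16 in R 4.3.3. The filterByExpr filter, at a minimum of 10 counts and a total of 15, passed 17534 genes and all 45 members. With TMM scaling, 1 quasi-likelihood model (robust=TRUE, a mean per group) covered all 9 libraries. Benjamini-Hochberg adjustment ran over all genes tested, and an adjusted p under 0.05 was a call. The standard error is the size of the log2 fold change divided by the square root of F. The share test was the same fit with the summed member count as library size. The procedure was tested on simulated counts.

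Coding and mRNA lengths came from GENCODE M21 and were matched by symbol. Coding length was known for 80.0% of the genes tested and for all 45 members. In the coding-length offset, genes with a reference transcript but no coding sequence entered at their mRNA length. Deposited lengths served as 1 of the offsets, each being a library's lowess trend (span 0.3). Promoters came from RefSeq tables of GRCm38.p6, which may not be the authors' build and were used for sequence only. Protein sequences were not used here.

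The members and the gene lists were chosen with earlier results of these data known. Any member may be named. Library values are given, by group and where the text turns on them, for the 4 highest and 4 lowest members of each comparison and of the share test, and for Rplp0, Rplp1, Rplp2, Rpl5, Rpl11, Rpl10, Rpl22, Rpl38 and Rpl39. Values of non-members are given for paralogs, fusion genes and up to 4 genes with the highest mean CPM of each list, and 1 listed gene is not reported here. Members named beyond this for their values were chosen after those were seen.

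Alternatives were DESeq2 1.42.0, limma-voom with limma 3.58.1, other scalings and filters, the replicate number as a block, length and GC offsets, another threshold, and dropping single libraries. The coding-length offset, TMM factors without ribosomal protein genes, and counts without Rpl13a and Rpl24 were chosen after seeing the data. Replicates of a group differed by more than sampling noise, so each library was used as 1 replicate.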

Additional observations from a re-analysis of the deposited data

How the results depend on the processing

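In GB against aged vehicle 44 members were called higher under every alternative but the one without Rpl13a and Rpl24, which gave 43 of 43, and with age 0 members were called under any. The median log2 fold change of the members in GB against aged vehicle was 1.64 with library totals, 1.67 with the offset for deposited length, 1.68 with length and GC content and 1.48 with coding length, and 1.62, 1.67, 1.70 and 1.48 against young vehicle. The log2 ratio of the summed level was 1.52 with library totals and 1.71 with totals without mitochondrially encoded genes against aged vehicle, and 1.54 and 1.81 against young vehicle. With age the latter gave 0.10. The cause of these shifts was not tested. Leaving out each library gave 44 to 44 members against aged vehicle, 44 to 45 against young vehicle and 0 with age, medians of 2.15 to 2.24, 2.10 to 2.21 and -0.06 to 0.06, and summed log2 ratios of 2.05 to 2.14, 2.04 to 2.15 and -0.05 to 0.05. In share, 18 to 20 members were higher and 10 to 14 lower against aged vehicle, and 19 to 21 and 12 to 14 against young vehicle. Replicate numbers did not pair the libraries, since correlations of same-numbered libraries were -0.03 to 0.06. With the replicate block 44 members were called against aged vehicle, 44 against young vehicle and 0 with age.

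Of 2826 changes of share under the alternatives 43 took the other sign. Among those of Rplp1, Rplp2, Rpl39 and Rpl22 these were, against aged and young vehicle, Rplp1 with the deposited-length offset (-0.0050 and -0.081) and with length and GC content (-0.14 and -0.17), Rplp2 with coding length (-0.0049 and -0.076), Rpl39 with coding length (-0.26 and -0.19), and Rpl22 with length and GC content against young vehicle (0.012). Of the listed genes, library totals turned Ddx24 (-0.44 and -0.35), Eef2 (-0.21 and -0.37), Rpl7l1 (-0.024 and -0.012), Eef1a1 (-0.069) and Rsl1d1 (-0.10, both against aged vehicle only), and the deposited-length offsets turned Ncl (0.20 and 0.13, and with GC content 0.27 and 0.11). Depth limits Rpl24 and Rpl36al, whose counts are few.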

Other observations

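Rows named as pseudogenes of large-subunit genes numbered 199, of which 117 had a count and 44 were tested. In GB against aged vehicle 38 of the 44 were called higher and 0 lower (edgeR), where 24.4% of all genes were higher and 28.8% lower. Their median log2 fold change was 2.24, beside 2.20 for the members. With age 0 of the 44 were called, where 4.32% of all genes were higher and 4.28% lower. The levels of the 199 rows summed to 156 to 165 CPM in aged vehicle and to 786 to 920 CPM with GB. Whether these counts come from the pseudogenes or from reads of the members was not tested.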
